A study of Mus musculus with 15 samples.

Results

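Calcium entry, calcineurin and NFAT form one arm of T cell receptor signalling, and 10 genes of that arm are described here in mouse CD8+ T cells. They were chosen by name: the transcription factor genes Nfatc1, Nfatc2 and Nfatc3, the calcium entry genes Orai1 and Stim1, the calcineurin subunit genes Ppp3ca, Ppp3cb and Ppp3r1, and the calcineurin inhibitor genes Rcan1 and Cabin1. All 10 have a row among the 17493 genes counted, and all 10 were among the 10831 genes with enough counts to be tested.

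The cells were OT-I CD8+ T lymphocytes isolated from female mice, out of spleen and lymph nodes, of the strain C57BL/6-Tg(TcraTcrb)1100Mjb/Crl, whose transgenic receptor recognises an ovalbumin peptide on MHC class I. All 15 libraries carry that transgene, so every group has one receptor specificity. The unstimulated group was taken at 0 h with no treatment, and no unstimulated cells were taken at 8 h or 22 h. Comparisons with the unstimulated group therefore join the stimulus with time in culture. The parts of the stimulus and of culture time cannot be told apart in them. Cells of the IF groups were cultured for 8 h or 22 h with 5 ng/ml immunofilaments, synthetic filaments labelled as carrying peptide-loaded MHC (SIIT) and IL-2. The DC groups received 20000 dendritic cells, grown with Flt-3 ligand and pulsed with the peptide SIITFEKL, for each 50000 T cells, also for 8 h or 22 h. Each of the 5 groups has 3 libraries. The labels give no added IL-2 and no costimulatory ligand for the DC groups, and no age for the mice. Before lysis, viable cells that were CD8+ and CD103- were sorted. The titles number the replicates of every group as Don1, Don2 and Don3. The labels do not explain "Don", which could mark donors shared across groups, and do not say whether replicates came from separate animals or cultures. The p-values then measure the spread between these libraries, which may be technical.

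A T cell receptor that binds its ligand leads to release of calcium from the endoplasmic reticulum. STIM1 senses the emptied store and opens ORAI1, the pore through which calcium enters across the plasma membrane. Calcium-bound calmodulin then activates the phosphatase calcineurin, which removes phosphate from NFAT proteins so that they enter the nucleus and act on genes of the T cell response. Most of this control acts on protein that is already present, and RNA levels do not measure calcineurin activity or the location of NFAT.

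Total counts per library ran from 2892874 to 19806730, and 11427 to 13591 genes had a count. Libraries 2 and 3 of IF 22 h stood apart from the other 13. In both, 127 of the 10831 tested genes (1.17%) lay more than 2-fold below every other library, against at most 34 genes for any other pair, and Stim1 and Ppp3ca are among the 127. Mitochondrial ribosomal RNA made up 0.179% and 0.146% of their counts and 1.82% to 4.49% in the others. The part of this difference in the results was not tested. Where a call named at IF 22 h was lost without both, that is said beside it. The CD8 T cell markers had counts in every library, with a summed level of 5899 to 6552 CPM (counts scaled to a common library total, which was itself adjusted by the trimmed mean of M values, TMM) in unstimulated cells and 2578 to 4391 CPM in stimulated cells. Cd4 had no count in 14 of 15 libraries. The 13 dendritic cell markers summed to 642 to 1532 CPM before stimulation, 210.2 to 463 CPM at IF 8 h, 843 to 1231 CPM at DC 8 h, 372 to 625 CPM at IF 22 h and 464 to 631 CPM at DC 22 h. Of these 13 markers, 9 were counted in each unstimulated library and 7 in each library cultured with immunofilaments for 8 h. The transcription factor gene Zbtb46 had no count in either of those groups, and the chemokine gene Ccl17 had none before stimulation. In bulk RNA, fewer cells of a type and less RNA per cell cannot be told apart, for these markers and for every gene below.

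Few of the 10 genes changed. Nfatc1 rose after immunofilaments at both times and was higher with immunofilaments than with dendritic cells at 22 h, Nfatc2 fell at DC 8 h, and Cabin1 fell at DC 22 h. A gene is said here to rise, fall or change when its adjusted p was under 0.05 in edgeR's quasi-likelihood test, with Benjamini-Hochberg adjustment over all genes. Against unstimulated cells, 1 of the 10 passed in each comparison, or 10% of the set. Among all genes tested, 7.76% passed at IF 8 h (3.04% higher, 4.72% lower), 6.82% at DC 8 h (2.75% higher, 4.07% lower), 6.08% at IF 22 h (2.63% higher, 3.44% lower) and 7.76% at DC 22 h (3.41% higher, 4.35% lower). A count of 1 in 10 is near that background, so the counts alone show nothing particular to these genes. The 4 comparisons share the unstimulated libraries.

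**Figure D1:**
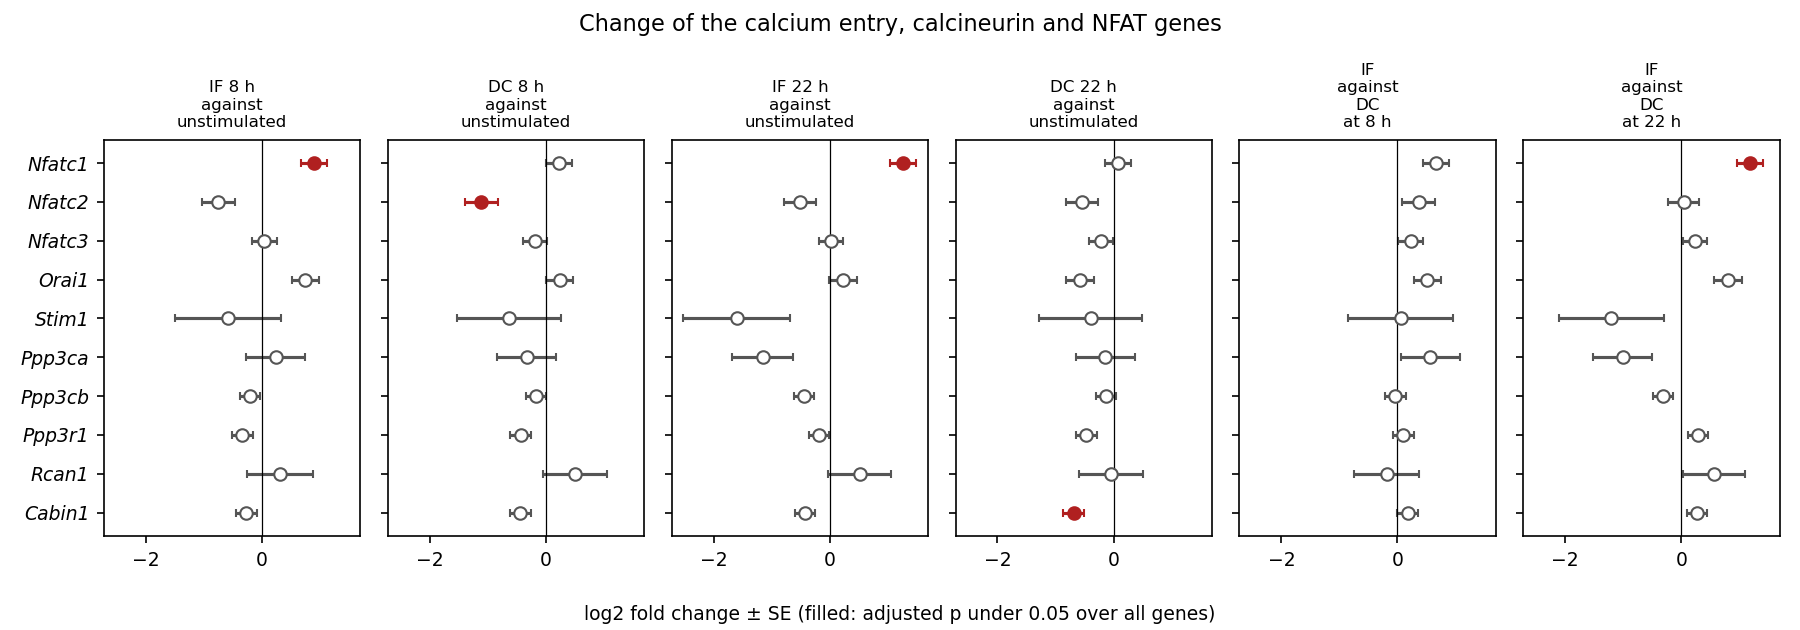
Log2 fold change with its standard error (horizontal axis) for each of the 10 genes (vertical axis) in 6 comparisons; filled red points passed an adjusted p of 0.05. Nfatc1 passed in 3 comparisons, Nfatc2 at DC 8 h and Cabin1 at DC 22 h, and Stim1, whose IF 22 h libraries differ widely, has the longest bar in each comparison.

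Nfatc1 encodes NFATc1, also called NFAT2, the family member whose short isoform is known to be induced when lymphocytes are stimulated and NFAT is active. Its gene spans 80606205 to 80713071 on the minus strand of chromosome 18 (GRCm38, GENCODE vM21). Unstimulated libraries had 97.8, 100.5 and 125 CPM. At IF 8 h the values were 180.2, 191 and 231 CPM, and at IF 22 h they were 242, 241 and 294 CPM. All 6 immunofilament libraries lay above all 3 unstimulated libraries. Dendritic cells gave another picture, with 108, 166 and 106 CPM at 8 h and 102, 155 and 86.1 CPM at 22 h. Both DC groups overlapped the unstimulated group, and in each of them library 2 was the highest. The DC library 2 was also the highest of its group at both times for Egr2, Tnfrsf9, Xcl1, Ccl4 and Il2ra, genes induced in activated T cells. These genes were picked after their values were seen, and no count is given of the genes that share or lack this order. Orai1 and Nr4a2, described below, lack it. At DC 22 h library 2 was the lowest for Orai1, at 78.5 CPM, and was not the highest for Nr4a2.

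The rise of Nfatc1 was 1.86-fold at IF 8 h (log2 fold change 0.90 ± 0.23 SE, adjusted p = 0.0236) and 2.40-fold at IF 22 h (1.27 ± 0.23, adjusted p = 0.00304). The change was 0.23 ± 0.23 at DC 8 h (adjusted p = 0.608) and 0.08 ± 0.23 at DC 22 h (adjusted p = 0.871), so neither DC group passed. The call at IF 8 h was lost without unstimulated library 1 (adjusted p = 0.0940), unstimulated library 2 (0.0953) or IF 8 h library 3 (0.0997). At IF 22 h it was kept when any single library was left out; with libraries 2 and 3 both left out the value was 1.17 and the adjusted p 0.105.

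The direct comparison of the stimuli gave 2.27-fold more Nfatc1 with immunofilaments than with dendritic cells at 22 h (log2 difference 1.18 ± 0.23 SE, adjusted p = 0.00926, n = 3 libraries a group in edgeR's test). The lowest IF 22 h library, at 241 CPM, lay above the highest DC 22 h library, at 155 CPM. Among all genes, 2.43% differed at 22 h (1.23% higher with immunofilaments, 1.2% lower), and Nfatc1 was the only one of the 10 to do so. The adjusted p was 0.0547 without IF 22 h library 3, 0.0570 without DC 22 h library 1, 0.0783 with only both groups in the fit, and 0.347 without IF 22 h libraries 2 and 3, with log2 differences between 1.08 and 1.16. B cells also express Nfatc1, and 5 of the 8 B cell markers fixed for this work have a row. In the cells sorted as CD8+ and CD103-, the summed level of these markers was 18.3 to 35.1 CPM at IF 22 h and 4.76 to 12.5 CPM at DC 22 h. It was 18.8 to 21.3 CPM in unstimulated cells. At 8 h it was 7.31 to 33.2 CPM with immunofilaments and 3.35 to 10.1 CPM with dendritic cells. Of these markers, Ebf1 had no count in any library outside IF 22 h. The part of B cells in the difference was not tested.

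At 8 h the 2 stimuli differed at 0.665% of genes (0.231% higher with immunofilaments, 0.434% lower) and at none of the 10. In that comparison 2 of the 10 had an unadjusted p under 0.05 in edgeR, Nfatc1 and Orai1, against 896 of all 10831 genes, and DESeq2 called none. For Nfatc1 the log2 difference was 0.66 ± 0.23 with an adjusted p of 0.311, although the lowest IF library at 180.2 CPM lay above the highest DC library at 166 CPM. Whether the difference between stimuli grew with time was tested by an interaction term, which was 0.52 ± 0.32 for Nfatc1 (adjusted p = 0.702). Ordered by mean, the Nfatc1 groups ran from unstimulated (108 ± 15 CPM, SD, n = 3) through DC 22 h (114 ± 36.0) and DC 8 h (127 ± 34.1) to IF 8 h (201 ± 26.6) and IF 22 h (259 ± 30.4). The lowest 3 groups overlapped one another. IF 8 h and IF 22 h did not overlap, but the increase between them, 0.37 ± 0.22, did not pass (adjusted p = 0.480).

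**Figure D2:**
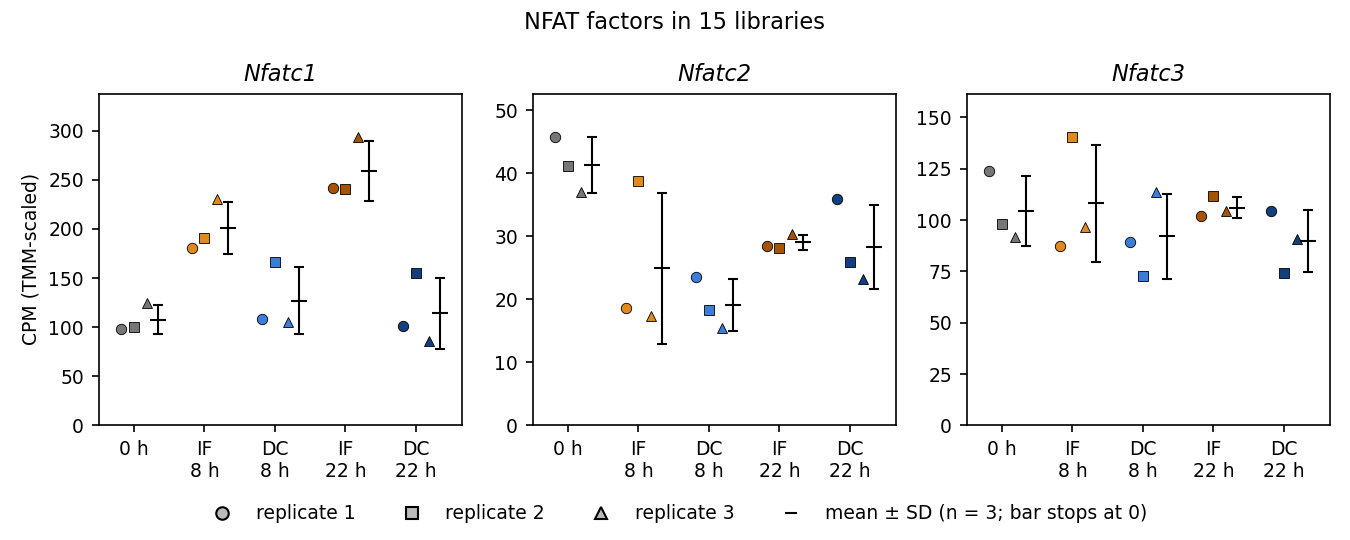
Level of Nfatc1, Nfatc2 and Nfatc3 (TMM-scaled CPM, vertical axis from 0) in each library of the 5 groups (horizontal axis, 0 h being unstimulated); symbols mark replicates and bars show mean ± SD of 3 libraries. The 6 immunofilament libraries, from 180.2 to 294 CPM, lie above all other libraries for Nfatc1, and the 3 unstimulated libraries are among the highest for Nfatc2.

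Nfatc2 encodes NFATc2, also called NFAT1, which resting T cells hold in the cytoplasm and which acts early after calcium entry. The gene spans 168476410 to 168601657 on the minus strand of chromosome 2. Unstimulated libraries had 45.8, 41.2 and 37.0 CPM. The DC 8 h libraries had 23.6, 18.4 and 15.4 CPM, all below all unstimulated libraries. The fall at DC 8 h was 2.16-fold (log2 fold change −1.11 ± 0.28 SE, adjusted p = 0.0229). At IF 8 h the libraries had 18.6, 38.8 and 17.4 CPM, of which the middle one lay within the unstimulated range, and the change of −0.75 ± 0.28 did not pass (adjusted p = 0.122). Without that library Nfatc2 did pass at IF 8 h. At 22 h the level was 28.2 to 30.4 CPM with immunofilaments and 23.2 to 35.9 CPM with dendritic cells, both ranges below the unstimulated one, with changes of −0.51 ± 0.27 (adjusted p = 0.314) and −0.55 ± 0.27 (adjusted p = 0.254).

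The DC 8 h call for Nfatc2 was lost without unstimulated library 1 (adjusted p = 0.0821) or 2 (0.0678), without DC 8 h library 2 (0.0820) or 3 (0.0886), and when libraries were scaled by their totals alone (0.0686). The stimuli were not shown to differ: the log2 difference of IF from DC was 0.36 ± 0.28 at 8 h (adjusted p = 0.848) and 0.04 ± 0.27 at 22 h (adjusted p = 0.971). All groups of stimulated cells overlapped their neighbours in the order of means for Nfatc2, and only the step from IF 22 h to unstimulated had no overlap.

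The 250 bases before the start of Nfatc2 that lies farthest upstream in RefSeq (GRCm38.p6, chr2:168601658-168601907, minus strand) are shown because this gene fell and NFAT proteins bind DNA at a GGAAA core. Capitals mark GGAAA, or TTTCC where the core is on the other strand, both strands having been searched:
Nfatc2 upstream: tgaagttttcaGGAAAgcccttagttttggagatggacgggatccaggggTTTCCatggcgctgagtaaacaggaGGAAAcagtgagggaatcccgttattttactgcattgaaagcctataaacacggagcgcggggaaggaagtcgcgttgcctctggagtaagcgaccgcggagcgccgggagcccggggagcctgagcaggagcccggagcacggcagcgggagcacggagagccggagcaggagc
This window holds 3 matches, and the window before a second, more internal Nfatc2 start holds 1. Among 32851 windows of this length before RefSeq starts, 55.6% hold at least 1 match and 6.39% hold at least 3. A match is a run of letters and shows no binding. Of the 10 genes, 8 have such windows, 11 in all. The window of Cabin1, which also fell, holds 0 matches, and that of Ppp3cb, which passed in no comparison, holds 3.

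Nfatc3, the family member NFATc3 or NFAT4, which is expressed in developing and mature T cells, passed in no comparison. Its gene lies at 106058840 to 106130537 on the plus strand of chromosome 8. The unstimulated libraries had 124, 98.0 and 91.7 CPM, and the other 12 ran from 72.8 to 141 CPM. Each group overlapped each of its neighbours in the order of means. The log2 fold changes from unstimulated cells lay between −0.22 at DC 22 h and 0.05 at IF 8 h, with adjusted p of 0.584 and 0.929. Nfatc3 shares 219 exonic bases with Esrp2 on the opposite strand.

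The 3 NFAT genes can be set against each other within a library, where scaling plays no part. The ratio of Nfatc1 counts to Nfatc2 counts was 2.13 to 3.38 in unstimulated libraries. It was 4.92 to 13.2 at IF 8 h, 4.60 to 9.03 at DC 8 h, 8.49 to 9.66 at IF 22 h and 2.83 to 5.98 at DC 22 h. Every library of the first 3 of these stimulated groups lay above every unstimulated one, while DC 22 h overlapped them. The ratio rests on counts at transcript ends and does not give the ratio of transcripts between the genes. At DC 8 h it moved mainly through Nfatc2, and at IF 22 h mainly through Nfatc1, as their separate values above show.

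**Figure D3:**
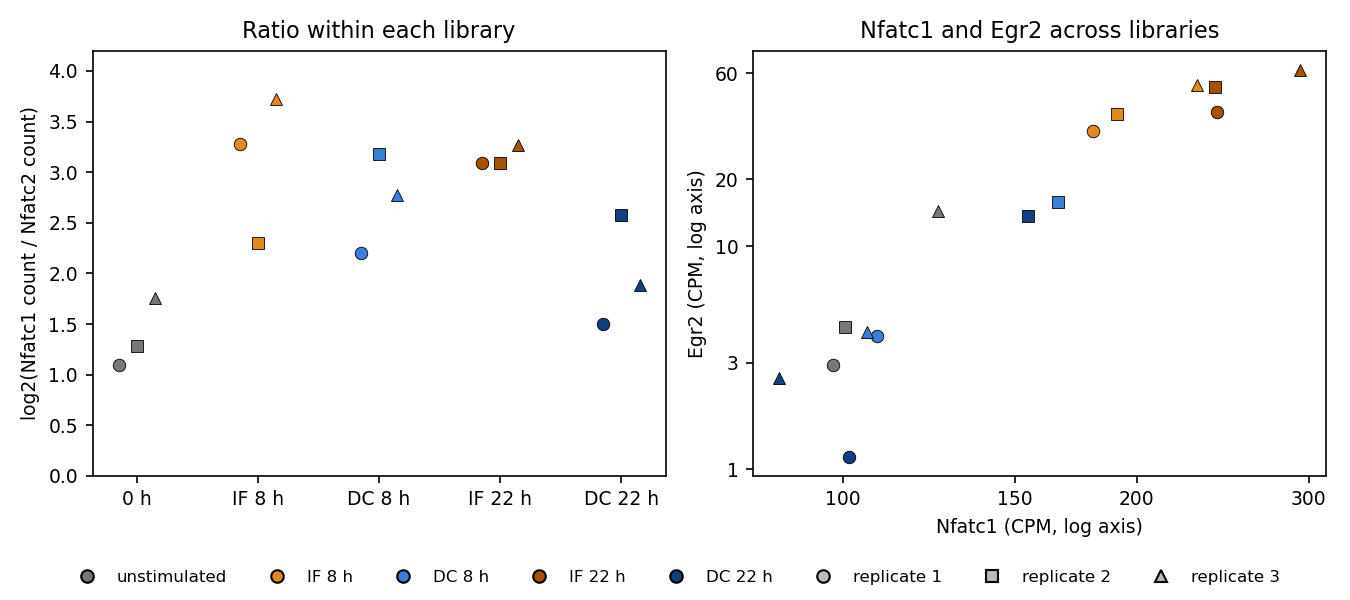
Left, log2 of the ratio of Nfatc1 to Nfatc2 counts (vertical axis) in each library of the 5 groups; right, Nfatc1 against Egr2 (both CPM, log axes) over 15 libraries, coloured by group. Ratios at IF 22 h, 8.49 to 9.66, lie close together above all unstimulated ones, and Egr2 is highest in the libraries with most Nfatc1.

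Among all tested genes, the 3 whose log2 CPM was most like that of Nfatc1 over the 15 libraries were Egr2 (Pearson r = 0.95), Chst2 (0.93) and Sept7 (0.92). The 15 points share groups, library totals and scaling, so these are descriptions of likeness. Egr2, the gene of a zinc finger factor induced by T cell receptor signalling, had 2.94, 4.34 and 14.4 CPM in unstimulated cells. It had 32.8, 39.5 and 53.3 CPM at IF 8 h and 40.4, 51.9 and 62.0 CPM at IF 22 h. In the DC groups it had 3.96, 15.8 and 4.11 CPM at 8 h and 1.14, 13.7 and 2.56 CPM at 22 h. As with Nfatc1, all immunofilament libraries lay above all others and library 2 was the highest of each DC group. For Nfatc2 the most alike were Myo6 (0.88), Aqp9 (0.85) and Gng2 (0.83), and for Cabin1 they were Rps7 (0.91), Tmem243 (0.91) and Slc2a9 (0.90).

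Orai1, the pore subunit of the calcium release-activated channel, was highest at IF 8 h and lowest at DC 22 h, and in no comparison passed the test. Its gene lies at 123015074 to 123030456 on the plus strand of chromosome 5 and shares 7 exonic bases with the antisense gene Gm2479. Unstimulated libraries had 163, 162 and 76.3 CPM. At IF 8 h the level was 215, 229.8 and 231 CPM, above every other library. At DC 8 h it was 128, 192 and 154 CPM. At 22 h immunofilament libraries had 149, 179 and 143 CPM and dendritic cell libraries 87.2, 78.5 and 104 CPM. Each stimulus thus showed a lower range at 22 h than at 8 h, and at each time the immunofilament range lay above the dendritic cell range.

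These differences of Orai1 fell short of the threshold. The log2 fold change was 0.75 ± 0.24 at IF 8 h (adjusted p = 0.0661) and −0.57 ± 0.24 at DC 22 h (adjusted p = 0.162). Between stimuli the difference was 0.51 ± 0.24 at 8 h (adjusted p = 0.588) and 0.80 ± 0.24 at 22 h (adjusted p = 0.0960). From 8 h to 22 h it was −0.52 ± 0.24 with immunofilaments (adjusted p = 0.314) and −0.81 ± 0.24 with dendritic cells (adjusted p = 0.185). Unstimulated library 3, at 76.3 CPM, widened the spread: without it the value at IF 8 h was 0.47 and that at DC 22 h passed. DESeq2 called Orai1 at IF 8 h and between stimuli at 22 h. In edgeR it also passed at IF 8 h with library totals alone (adjusted p = 0.0157) and with no filter on low counts (0.0106). The fit of only both groups called it at IF 8 h as well (0.0426). With no filter it passed too between stimuli at 22 h (0.00629) and from 8 h to 22 h with dendritic cells (0.0147).

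Stim1, the calcium sensor of the endoplasmic reticulum, had values at IF 22 h that split within the group. Its gene lies at 102267806 to 102437319 on the plus strand of chromosome 7. IF 22 h library 1 had 35.0 CPM, from 294 counts, whereas libraries 2 and 3 had 0.598 CPM (5 counts, exact Poisson 95% interval 0.194 to 1.39 CPM) and 0.510 CPM (10 counts, 0.245 to 0.939 CPM). The other 12 libraries ran from 15.5 to 43.7 CPM. The intervals cover counting error only. Libraries 2 and 3 had totals of 8805220 and 19806730 counts, no fewer than the 7991069 of library 1.

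Ppp3ca, the gene of the catalytic subunit calcineurin A alpha, split in the same libraries. Its gene lies at 136670124 to 136937727 on the plus strand of chromosome 3. IF 22 h library 1 had 21.9 CPM, and libraries 2 and 3 had 5.74 CPM (48 counts, interval 4.23 to 7.61 CPM) and 2.30 CPM (45 counts, 1.68 to 3.07 CPM). The other 12 libraries had 16.2 to 30.7 CPM.

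With all libraries and the filter on low counts, neither gene passed at IF 22 h: the log2 fold change from unstimulated cells was −1.60 ± 0.92 for Stim1 (adjusted p = 0.353) and −1.16 ± 0.52 for Ppp3ca (adjusted p = 0.216). Leaving out library 1 gave −5.99 (adjusted p = 3.67e-06) for Stim1 and −2.49 (adjusted p = 0.000547) for Ppp3ca. Leaving out libraries 2 and 3 gave −0.02 and 0.01 (adjusted p = 1 for both). With all libraries but no filter on low counts, both passed (−1.59, adjusted p = 0.000663 for Stim1 and −1.14, adjusted p = 0.0144 for Ppp3ca). The values of these genes at IF 22 h therefore differ with the libraries used and the calls also with the filter, and no change of either gene at IF 22 h is claimed here. At the other 3 stimulated groups the changes of Stim1 were −0.59, −0.64 and −0.39, and those of Ppp3ca 0.24, −0.33 and −0.14, for IF at 8 h and then DC at both times, with adjusted p of 0.750 to 0.904.

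**Figure D4:**
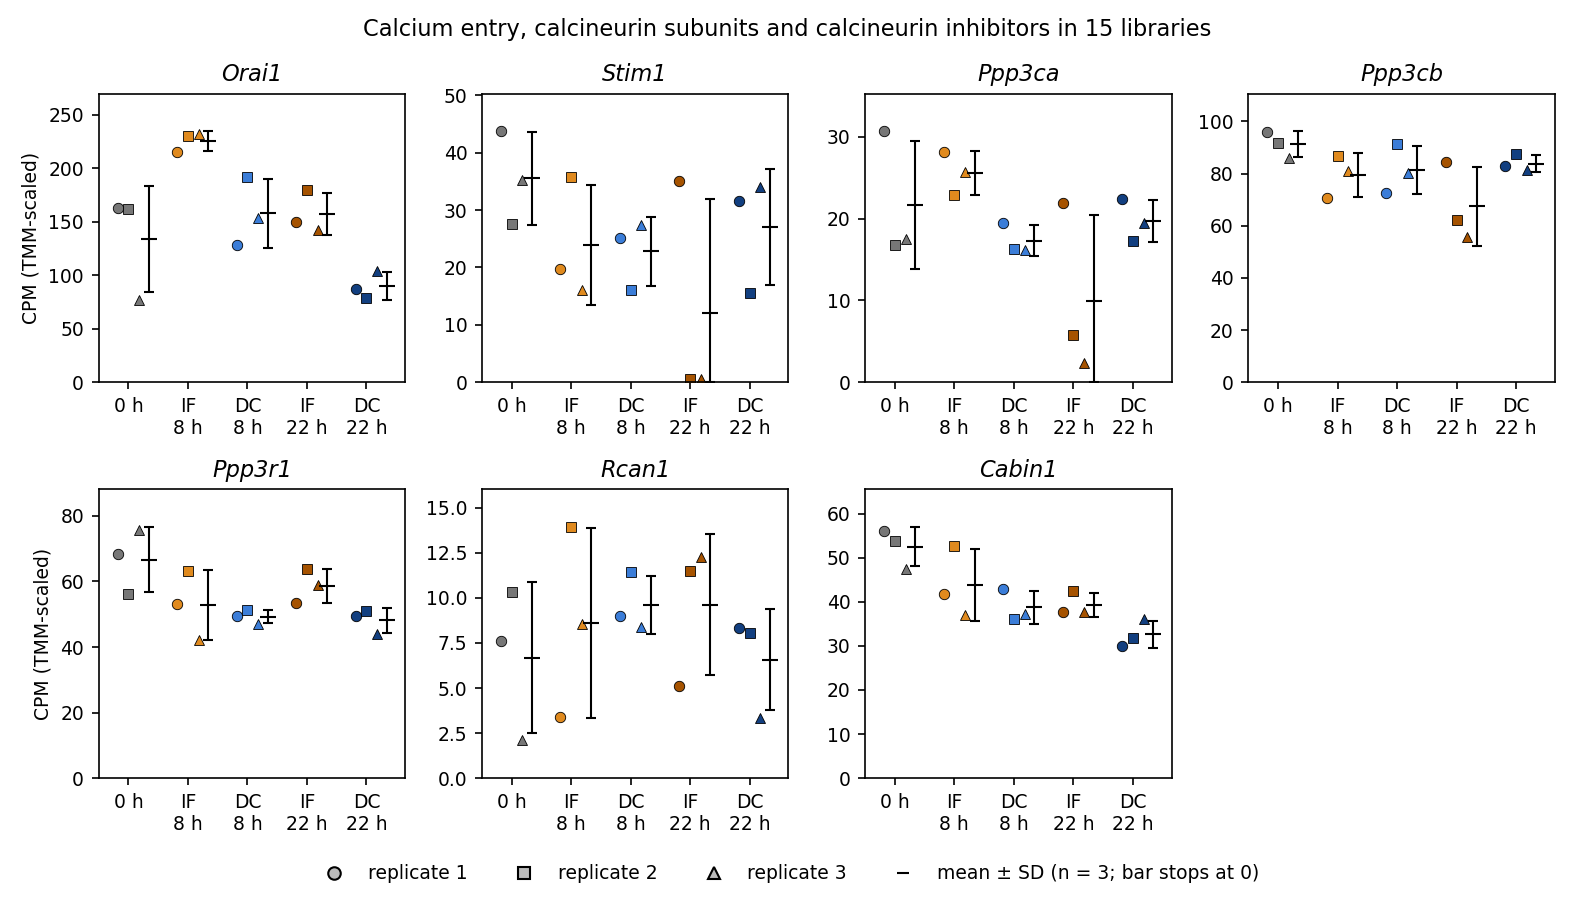
Level of Orai1, Stim1, Ppp3ca, Ppp3cb, Ppp3r1, Rcan1 and Cabin1 (TMM-scaled CPM, vertical axes from 0) in each library of the 5 groups (0 h being unstimulated); symbols mark replicates and bars show mean ± SD of 3 libraries. IF 22 h libraries 2 and 3 are near 0 for Stim1, at 0.598 and 0.510 CPM, and low for Ppp3ca, at 5.74 and 2.30 CPM.

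The other catalytic subunit gene, Ppp3cb (calcineurin A beta, the main form of lymphocytes; chromosome 14, 20499364 to 20546573, minus strand), varied little. Unstimulated libraries had 96.0, 91.8 and 86.1 CPM, and stimulated libraries outside IF 22 h had 70.5 to 91.2 CPM. At IF 22 h the values were 84.5, 62.3 and 55.5 CPM, with libraries 2 and 3 the lowest of all 15. The change at IF 22 h was −0.44 ± 0.17 (adjusted p = 0.152). It was −0.63 and passed without library 1 (adjusted p = 0.0324), and −0.11 without libraries 2 and 3 (adjusted p = 0.937).

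Ppp3r1, the gene of the calcium-binding regulatory subunit calcineurin B (chromosome 11, 17159263 to 17200375, plus strand), passed in no comparison. Its libraries had 68.3, 56.0 and 75.6 CPM before stimulation, 42.1 to 63.3 CPM at IF 8 h, 47.1 to 51.2 CPM at DC 8 h, 53.3 to 63.7 CPM at IF 22 h and 43.9 to 51.0 CPM at DC 22 h. Both DC groups lay below the unstimulated range, with changes of −0.43 ± 0.18 (adjusted p = 0.168) and −0.47 ± 0.18 (adjusted p = 0.125). Ppp3r1 shares 462 exonic bases with Wdr92 on the same strand, and reads in that stretch could belong to either.

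Cabin1 encodes a large protein that binds and inhibits calcineurin and represses MEF2 factors. The gene lies at 75646112 to 75764341 on the minus strand of chromosome 10. Unstimulated libraries had 56.1, 53.9 and 47.5 CPM. At DC 22 h the libraries had 30.05, 31.7 and 36.1 CPM, all below the unstimulated ones. The other stimulated libraries had 37.0 to 52.7 CPM for IF 8 h, 36.0 to 43.0 CPM for DC 8 h and 37.6 to 42.4 CPM for IF 22 h. Of the stimulated groups, IF 8 h alone overlapped the unstimulated range, and DC 8 h overlapped DC 22 h.

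The fall of Cabin1 at DC 22 h was 1.61-fold (log2 fold change −0.69 ± 0.18 SE, adjusted p = 0.0249). The change was −0.26 ± 0.18 at IF 8 h (adjusted p = 0.405), −0.44 ± 0.18 at DC 8 h (0.159) and −0.42 ± 0.18 at IF 22 h (0.182), and the log2 difference of IF from DC at 22 h was 0.26 ± 0.18 (0.527). The call was lost without unstimulated library 1 (adjusted p = 0.0985) or 2 (0.0905), without DC 22 h library 1 (0.0995) or 2 (0.0770), without the filter on low counts (0.0739) and with only both groups in the fit (0.0809). Scaling by library totals alone gave −0.36 (adjusted p = 0.171), and it moved the median of all genes at DC 22 h from 0.04 to 0.37.

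Rcan1, whose protein binds and restrains calcineurin and whose internal start is known to be driven by NFAT, was low and variable and passed in no comparison. Unstimulated libraries had 7.63, 10.3 and 2.09 CPM, from 52, 57 and 9 counts. The stimulated libraries had 3.39 to 13.9 CPM at IF 8 h, 8.37 to 11.4 CPM at DC 8 h, 5.12 to 12.2 CPM at IF 22 h and 3.33 to 8.31 CPM at DC 22 h. All neighbouring groups overlapped, and the changes from unstimulated cells ran from −0.05 to 0.51 with standard errors of 0.54 to 0.56. The highest, at IF 22 h, was −0.40 without libraries 2 and 3 (adjusted p = 0.930). The gene spans 92391953 to 92470867 on the minus strand of chromosome 16.

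RefSeq gives Rcan1 starts far apart, and counts at the transcript end cannot tell their transcripts apart, so the level above pools both. The 250 bases before each are shown because they differ in the GGAAA core, marked in capitals as for Nfatc2 (GRCm38.p6, minus strand, chr16:92466170-92466419 for the start farther upstream and chr16:92400079-92400328 for the internal start):
Rcan1 upstream start: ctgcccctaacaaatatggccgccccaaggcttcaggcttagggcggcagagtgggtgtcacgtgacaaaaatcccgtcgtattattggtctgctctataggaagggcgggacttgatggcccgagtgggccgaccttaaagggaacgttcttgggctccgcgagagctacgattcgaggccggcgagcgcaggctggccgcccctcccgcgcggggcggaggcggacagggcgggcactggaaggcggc
Rcan1 internal start: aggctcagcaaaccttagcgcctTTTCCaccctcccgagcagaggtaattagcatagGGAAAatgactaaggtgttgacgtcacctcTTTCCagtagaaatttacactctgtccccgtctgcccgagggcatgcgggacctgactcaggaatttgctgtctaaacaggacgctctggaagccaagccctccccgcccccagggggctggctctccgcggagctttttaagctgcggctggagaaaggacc
The upstream window holds 0 matches and the internal window 3, a number that 6.39% of all windows reach.

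Time alone changed none of the 10. From 8 h to 22 h, 1.12% of genes changed with immunofilaments (0.637% higher, 0.48% lower) and 0.48% with dendritic cells (0.379% higher, 0.102% lower), and the interaction of stimulus and time passed for 0% of genes in edgeR's test. Of the 10, the count with an unadjusted p under 0.05 was 2 with immunofilaments, 1 with dendritic cells and 1 in the interaction, against 1622, 978 and 858 of all 10831 genes, so these counts show nothing particular to the 10. DESeq2 called none of the 10 in these 3 comparisons. Without IF 22 h library 1, Stim1 and Ppp3ca passed from 8 h to 22 h with immunofilaments and in the interaction, through the low libraries described above.

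The wider pathway was described with 4 lists of 66 genes in all. Of 20 genes for calcium entry, stores and channels, 17 were tested. At least 1 passed in every stimulated group, and the same gene was among them each time: Atp2a3, the calcium pump SERCA3 that refills the endoplasmic reticulum. Its level was 290.4, 200.4 and 143 CPM before stimulation and 33.5 to 102 CPM in the 12 stimulated libraries, all below the lowest unstimulated one. The log2 fold changes were −2.05 ± 0.31 at IF 8 h (adjusted p = 0.000747), −2.58 ± 0.32 at DC 8 h (0.000130) and −1.67 ± 0.31 for either stimulus at 22 h (0.00340 with immunofilaments, 0.00293 with dendritic cells). The fall at IF 22 h did not pass without libraries 2 and 3 (adjusted p = 0.269), and passed in all other alternatives.

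Within that list the counts were 0 higher and 2 lower at IF 8 h, 0 and 1 at DC 8 h, 1 and 2 at IF 22 h and 1 and 1 at DC 22 h, where 6.08% to 7.76% of all genes passed in either direction. The other genes were Itpr2, an IP3 receptor through which stores release calcium, and Stim2, the sensor that responds to small losses of stored calcium. Itpr2 fell at IF 8 h (−0.91 ± 0.26) and IF 22 h (−1.20 ± 0.26). Stim2 rose at IF 22 h (0.75 ± 0.18, adjusted p = 0.0203) and DC 22 h (0.68 ± 0.18, adjusted p = 0.0270), from 22.3 to 29.8 CPM before stimulation to 38.9 to 45.5 CPM and 40.04 to 43.3 CPM. Each of these calls on Itpr2 and Stim2 was lost when single libraries were left out. No gene of the list passed at IF 22 h without libraries 2 and 3, where the values were −0.67 for Itpr2 (adjusted p = 0.510) and 0.82 for Stim2 (adjusted p = 0.196). The median log2 fold change of the list lay between −0.31 and 0.27 in the 4 stimulated groups, against 0.01 to 0.04 for all genes.

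Of 15 genes for calcineurin subunits, calmodulin and regulators, 13 were tested. The counts of the list were 1 higher and 2 lower at IF 8 h, 0 and 2 at DC 8 h, 1 and 1 at IF 22 h and 0 and 1 at DC 22 h. Among all genes 2.63% to 3.41% passed as higher and 3.44% to 4.72% as lower in these comparisons. The gene that rose was Rcan3, a relative of Rcan1, at IF 8 h (1.28 ± 0.36, adjusted p = 0.0401) and IF 22 h (1.37 ± 0.35, 0.0292), and among those that fell were Calm3, a calmodulin gene, at IF 8 h (−0.62 ± 0.18, 0.0459) and the kinase gene Camk2d at DC 8 h (−0.84 ± 0.21, 0.0199). These calls on Rcan3, Calm3 and Camk2d were lost when single libraries were left out. No gene of this list passed at IF 22 h without libraries 2 and 3 (Rcan3 1.05, adjusted p = 0.473).

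Of 11 genes for the other NFAT factors, NFAT kinases and partners, 8 were tested, and in each stimulated group 1 rose and 1 fell, where 6.08% to 7.76% of all genes changed. The one that rose was Nfat5, the family member that responds to osmotic stress and is not regulated by calcineurin. It had 9.39 to 11.4 CPM before stimulation and 22.6 to 40.1 CPM in the 12 stimulated libraries. The log2 fold change was 1.44 ± 0.22 at IF 8 h (adjusted p = 0.000769), 1.47 ± 0.22 at DC 8 h (0.000603), and at 22 h 1.48 ± 0.22 with immunofilaments (0.000614) and 1.83 ± 0.22 with dendritic cells (0.000130). These calls held in every alternative run, including the one without IF 22 h libraries 2 and 3. The one that fell was Dyrk2, a kinase that can phosphorylate NFAT, and the log2 fold changes were −0.91 and −1.05 with immunofilaments and −1.01 and −0.98 with dendritic cells, for 8 h and 22 h. Its unstimulated libraries had 30.7 to 44.8 CPM and its stimulated ones 15.2 to 25.2 CPM, but each call was lost without 1 or more single libraries. The IF 22 h call on Dyrk2 was also lost without IF 22 h libraries 2 and 3 (−1.04, adjusted p = 0.280). Dyrk2 shares 328 exonic bases with an unnamed gene model on the opposite strand.

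Of 20 NFAT target genes of T cells, 17 were tested, and the median log2 fold changes were 0.84 and 2.11 with immunofilaments and 0.06 and 0.83 with dendritic cells, for 8 h and 22 h, against 0.01 to 0.04 for all genes. At IF 8 h 6 rose and 0 fell, at DC 8 h 3 rose and 2 fell, at IF 22 h 6 rose and 0 fell, and at DC 22 h 3 rose and 1 fell. Among all genes 2.63% to 3.41% rose and 3.44% to 4.72% fell. Without IF 22 h libraries 2 and 3, 1 rose at IF 22 h, and without unstimulated library 2, 3 rose at IF 8 h and 3 at IF 22 h. At DC 22 h, 1 rose without unstimulated library 1 or 2. Without IF 22 h library 3, 3 rose at IF 22 h. The count of 2 that fell at DC 8 h became 0 or 1 without any single library of either group, and the 1 that fell at DC 22 h became 0 without unstimulated library 1. The list was chosen with earlier results of these data known, and its direction is no independent evidence.

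Tnfrsf9, the costimulatory receptor 4-1BB, rose in all 4 groups, from 3.49 to 6.14 CPM before stimulation to 32.3 to 258 CPM. Its log2 fold changes were 5.13 and 4.96 with immunofilaments and 4.86 and 4.30 with dendritic cells, for 8 h and 22 h, with adjusted p of 0.000107 to 0.000554, and held in every alternative. Il2ra, the high-affinity IL-2 receptor chain, rose by 4.70 ± 0.97 at DC 8 h and 4.42 ± 0.96 at DC 22 h. The chemokine genes Ccl4 and Xcl1 rose at IF 8 h (2.93 ± 0.60 and 4.13 ± 0.88) and at IF 22 h (2.92 ± 0.60 and 4.74 ± 0.89). They are named in those comparisons alone because only the 3 smallest p-values of each were named. Neither Il2ra nor Xcl1 passed between the stimuli at either time. Of these calls, Il2ra at DC 22 h was lost without unstimulated library 1 or 2, and Ccl4 and Xcl1 at IF 22 h without libraries 2 and 3. Cd40lg, the CD40 ligand gene, had 10, 22 and 1 counts before stimulation and 0 in each DC 8 h library, at least 16.5-fold lower by a floor of 3 counts over the group. That call (adjusted p = 0.0416) was lost without unstimulated library 1 or 2 or any DC 8 h library. Il2, the cytokine gene that is the classic NFAT target, had at most 7 counts in any library and was not tested.

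Between the stimuli, Ccl4 was the only NFAT target gene to differ at 8 h, 2.88 ± 0.60 higher with immunofilaments (adjusted p = 0.0333). At 22 h Egr2 was higher by 3.16 ± 0.73 (adjusted p = 0.0283) and Nr4a2, an orphan nuclear receptor gene of the early response, by 3.01 ± 0.69 (adjusted p = 0.0282). For Nr4a2 the level at 22 h was 12.4, 11.5 and 10.7 CPM with immunofilaments and 2.28, 2.10 and 0 CPM with dendritic cells, against 7.95 to 12.2 CPM before stimulation. It fell at DC 22 h by 2.88 on the log2 scale (adjusted p = 0.0169). The count of 1 at 8 h became 0 without any one of the IF 8 h libraries or without DC 8 h library 1 or 3. The count of 2 at 22 h became 8 without DC 22 h library 2, 1 without DC 22 h library 3, and 0 without IF 22 h library 2 or 3 or DC 22 h library 1. Without IF 22 h libraries 2 and 3 together neither passed (adjusted p = 0.484 for Egr2 and 0.321 for Nr4a2), nor in a fit of just both groups (0.123 and 0.197). In the other 3 lists no gene differed between stimuli at either time.

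**Figure D5:**
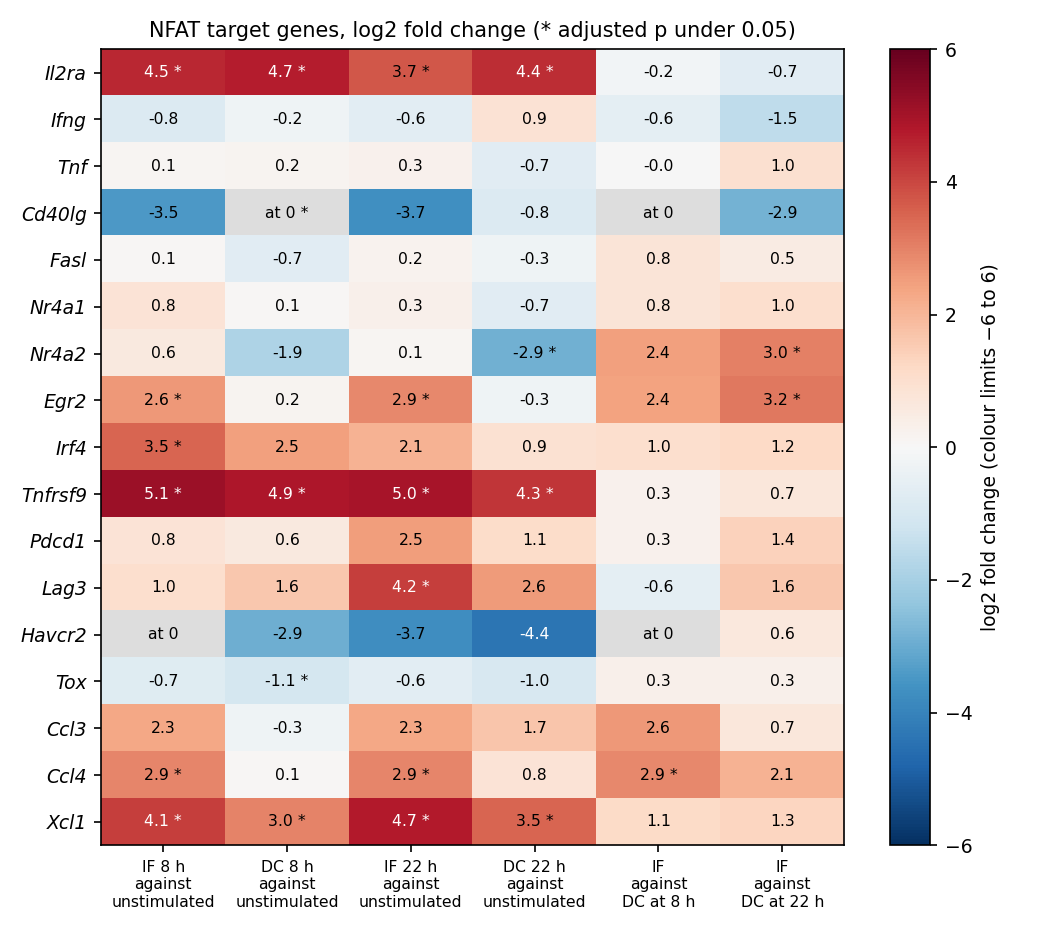
Log2 fold change of the 17 tested NFAT target genes (rows) in 6 comparisons (columns), red for higher and blue for lower in the first group named; a star marks an adjusted p under 0.05, and grey cells a gene at 0 in every library of a group, for which no fitted fold is shown. Tnfrsf9 rose in all 4 stimulated groups, and Egr2 and Nr4a2 were higher with immunofilaments than with dendritic cells at 22 h.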

How the data were processed

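Bulk RNA of 15 libraries was read from the deposited tables of counts per gene, whole numbers that the authors left unnormalized. Per the labels' protocols, an adapted CEL-seq method was used: barcoded primers for reverse transcription, pooling of the cDNA, amplification by in vitro transcription, and sequencing on a NextSeq 500. The submitters' processing notes name BWA and mm10. The counting program and its annotation, strand setting and handling of molecular identifiers are not given in the sources used here, so reads of overlapping genes cannot be told apart and counts need not be independent molecules.

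In R 4.3.3, edgeR 4.0.16 (with limma 3.58.1) kept 10831 genes by filterByExpr (minimum count 10, minimum total 15), scaled libraries by TMM and fitted a quasi-likelihood model of 5 group means to all 15 libraries. Each of 9 comparisons was tested two-sided, with Benjamini-Hochberg adjustment over all genes and a threshold of 0.05. Fold changes use a prior count of 0.125 and log2 CPM a prior count of 2. The procedure was tested on simulated data. Replicates differed by 9.50 to 98.1 times counting variation (chi-square per degree of freedom), and none were identical. Of 10 pairs of groups, only DC 8 h and DC 22 h had every correlation of same-numbered deviations over 0.1 (0.12, 0.40 and 0.24), which pairs these libraries by the data alone. With the number as a block, none of the 10 genes passed between DC 8 h and DC 22 h either, and 49 genes passed in all against 52.

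Named were the 10 genes in every comparison, the 3 genes with the smallest p past the threshold in each list and comparison, and the 3 genes most like each called member by Pearson r of log2 CPM over 15 libraries. The genes described, the lists and the tests were chosen with earlier results of these data known. Ebf1, Zbtb46, Ccl17, Il2 and the genes set beside Nfatc1 in the DC libraries were named after their values were seen. Some genes that the rule names are not reported here. Gene positions are from GENCODE vM21 and sequences from RefSeq, both of the build the notes name. Alternatives were DESeq2's size factors or library totals in place of TMM, no filter on low counts, DESeq2 1.42.0, a fit of just both compared groups, a block for the replicate number, each library left out in turn, and IF 22 h libraries 2 and 3 left out together. Running them on the lists was decided after the data were seen.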

Additional observations from a re-analysis of the deposited data

How the results depend on the processing

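The number of the 10 genes past the threshold stayed within 1.5 times its reported value in 83 of 118 alternatives. With library totals alone it was 2 at IF 8 h and 0 in both DC groups. With no filter on low counts it was 2 at IF 8 h, 3 at IF 22 h (with Stim1 and Ppp3ca), 0 at DC 22 h, 3 for IF against DC at 22 h, 1 for IF 22 h against 8 h (Ppp3ca) and 1 for DC 22 h against 8 h (Orai1). In a fit of just the compared groups it was 2 at IF 8 h, 0 at DC 22 h and 0 for IF against DC at 22 h. DESeq2 gave 2 at IF 8 h and 2 for IF against DC at 22 h, adding Orai1 to Nfatc1 in both. Without IF 22 h libraries 2 and 3 it was 0 at IF 22 h and 0 for IF against DC at 22 h, where fewer libraries enter the fit. Leaving out single libraries gave 0 to 2 at IF 8 h, 0 to 1 at DC 8 h, 1 to 4 at IF 22 h, 0 to 2 at DC 22 h, 0 for IF against DC at 8 h, 0 to 3 for IF against DC at 22 h, 0 to 2 for IF 22 h against 8 h, 0 for DC 22 h against 8 h and 0 to 2 for the interaction. A lone library left in an arm is assumed to vary like the other groups. The cause of each shift was not tested. The replicate number as a block left the number of the 10 genes as reported in all 9 comparisons, 1 at each stimulated group against unstimulated, and gave 767 genes called in all against 840 at IF 8 h and 54 against 72 for IF against DC at 8 h. Apart from DC 8 h and DC 22 h the numbers were not shown to pair libraries: their correlations ran from −0.19 to 0.12, and 9 of 15 libraries correlated best with their own number. Under the block Itpr2, Rcan3 and Calm3 did not pass at IF 8 h, nor Cd40lg at DC 8 h.

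Of 1180 values of the 10 genes under the alternatives, 20 lost and 22 gained the threshold, and 75 changed sign, all among values not past the threshold. No sign changed for a value past it. The total of all genes past the threshold also moved by over 1.5 times, in 25 cases besides those that leave out 1 library. With no filter it was 1129 against 739 at DC 8 h, 1101 against 658 at IF 22 h, 1278 against 840 at DC 22 h, 215 against 72 and 706 against 263 for IF against DC at 8 h and 22 h, 502 against 121 and 251 against 52 for 22 h against 8 h with IF and DC, and 155 against 0 for the interaction. DESeq2 gave 1157 at DC 8 h, 1049 at IF 22 h, 187 and 555 for IF against DC, 354 and 203 for 22 h against 8 h, and 38 for the interaction. The fit with only the groups compared gave 1299 at IF 8 h, 993 at IF 22 h, 517 at DC 22 h, 47 and 70 for IF against DC, and 0 for DC 22 h against 8 h. Library totals gave 1586 at DC 22 h. Without IF 22 h libraries 2 and 3 it was 99 at IF 22 h, 8 for IF against DC at 22 h and 0 for IF 22 h against 8 h. Without single libraries the totals ran from 419 to 573 at IF 8 h, 404 to 665 at DC 8 h, 283 to 947 at IF 22 h, 454 to 984 at DC 22 h, 27 to 52 and 90 to 759 for IF against DC at 8 h and 22 h, 24 to 541 and 1 to 138 for 22 h against 8 h, and 0 to 279 for the interaction. Rcan1 had few counts in some libraries (9 in its lowest). Stim1 had 5 and 10 counts in IF 22 h libraries 2 and 3, and 60 to 397 in the other libraries.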
